A study of Mus musculus with 12 samples.

Results

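Chemokine receptors of macrophages are described here through 8 genes, Ccr1, Ccr2, Ccr3, Ccr7, Cx3cr1, Cxcr4, Ccrl2 and Cmklr1, which were chosen by name out of the 38887 genes in the deposited tables. Chemokine receptors are G protein-coupled receptors that sense gradients of small secreted proteins and steer the migration of leukocytes. On macrophages and their monocyte precursors, Ccr2 is best known for the exit of monocytes from bone marrow, Cx3cr1 marks patrolling monocytes and several tissue macrophages, and Ccr7 guides dendritic cells to lymph nodes. Signals pass through Gi proteins, PI3-kinase gamma and Rac, and are switched off by receptor kinases, arrestins and RGS proteins.

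RNA was sequenced from bone marrow-derived macrophages (BMMs), which are cells grown from bone marrow with the growth factor M-CSF (50 ng/ml, 6 days), of mice aged 3 to 4 months. The KO mice carried Igf2bp2 alleles with loxP sites around exons 4 and 5 (B6.Cg-Igf2bp2tm1.1Thor/J) together with Cre recombinase expressed from the Lyz2 locus (29P2-Lyz2tm1(cre)Ifo/J), so that the RNA-binding protein IGF2BP2 was to be lost in myeloid cells. Igf2bp2 was not floxed in the WT littermates, with or without Cre. All BMMs were kept in M-CSF and were either untreated (M0) or exposed to IL-4 (20 ng/ml, 8 h; M2), with 3 libraries in each of the groups WT M0, KO M0, WT M2 and KO M2. Libraries are numbered from 1 to 3 within a genotype, and the M0 and M2 libraries of one number, which deviated together from their group means, are called a mouse here, although the labels give the number alone.

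Libraries held between 20011792 and 39632770 counts, with the lowest totals in WT M2. Igf2bp2 itself ranged from 76.5 to 117.7 CPM (library-scaled counts, TMM) in WT M0 and from 84.9 to 95.9 CPM in KO M0, and from 178 to 233 CPM in WT M2 against 129 to 146 CPM in KO M2. Counts over the whole gene include the exons that remain and therefore do not test the deletion, whereas Lyz2, the site of the Cre insertion, lay at 4185 to 10540 CPM in the WT libraries and at 11.04 to 33.2 CPM in the KO libraries. The 6 macrophage markers (Adgre1, Csf1r, Mertk, Fcgr1, Cd68 and Itgam) summed to between 2996 and 3860 TPM (transcript abundance scaled for gene length and library) in every library, and none of them was at 0. Both libraries of WT mouse 3 stood apart from the other WT libraries (chi-square per gene of 36.2 and 22.1 in M0 and 19.5 and 16.01 in M2, against 8.02 and 5.49 for mice 1 and 2), so receptors whose calls change without them are given both ways. The first KO M2 library also differed from the others of its group (18.4 and 13.9, against 4.69). Without it the number of receptors called was unchanged, at 0 between the genotypes in M2, 3 with IL-4 in KO and 1 for the difference of the IL-4 responses. WT mouse 3 alone was left out with both libraries, a choice made after the data had been seen. Nothing in the labels ties a library to a batch, and the p-values measure only the spread between these libraries.

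Of the 8 receptors 5 lie on chromosome 9, and all positions are those of GENCODE M21 on GRCm38. Ccr1 (ENSMUSG00000025804, chr9:123962124-123968692, minus strand) is followed after 53.3 kb by Ccr3 (ENSMUSG00000035448, chr9:124021972-124031689, plus strand) and after a further 70.3 kb by Ccr2 (ENSMUSG00000049103, chr9:124101950-124113557, plus strand). Cx3cr1 (ENSMUSG00000052336, chr9:119901616-120069879, minus strand) is annotated over 168264 bases that also hold 3 genes on the same strand and 6 on the other, and the reads these genes share were divided among them by the authors' quantification. Ccrl2 (ENSMUSG00000043953, chr9:111054486-111057519, minus strand) lies farther off on the same chromosome. The remaining receptors are Cxcr4 (ENSMUSG00000045382, chr1:128588199-128592293, minus strand), Cmklr1 (ENSMUSG00000042190, chr5:113612354-113650426, minus strand, with 1 gene on the opposite strand inside it) and Ccr7 (ENSMUSG00000037944, chr11:99144196-99155077, minus strand). Ccr1 and Ccr1l1 are closely related neighbors, and how the quantification divided reads between such relatives is uncertain.

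RefSeq start-site windows (250 bases before to 50 after the start, GRCm38.p6) were found for 7 of the 8 receptors, 9 windows in all. They were searched on both strands for 5 motifs that were chosen after the windows had been seen. The STAT6-type motif, TTC and GAA separated by 4 bases, the general STAT motif TTCNNNGAA and the PU.1-type motif GAGGAAGT were in none of the 9 windows, and stood in 6.95%, 8.3% and 3.2% of all 32851 windows. A TATA box (TATAAA) was in the Cxcr4 window and in 13.6% of all windows, and an NF-kB-type motif (GGACTTTCC) was in 1 of the 3 Ccrl2 windows and in 0.34% of all. Both stretches are shown because they were the only matches, with the motif in capitals, read 5′ to 3′ on the minus strand. Cxcr4 starts 30 bases after the first base of its motif, whose reverse form overlaps it, and the Ccrl2 motif begins 68 bases before the start. These matches describe letters in a window and say nothing about binding.
Cxcr4 (chr1:128592312-128592341): ggagcgtgttttTATAAAagtccggttcgg
Ccrl2 (chr9:111057568-111057597): gtcctcacacaGGACTTTCCcccggggctt

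Levels were compared between genes in TPM, which account for gene length. Of the 8 receptors, 5 (Ccr1, Ccr2, Ccr3, Cxcr4 and Cmklr1) reached 1 TPM in all 12 libraries. In WT M0, the fractalkine receptor gene Cx3cr1 was the most abundant, with 35.6 TPM on average, followed by Ccr1 with 23.5 TPM, Ccr2 with 11.5 TPM, Cxcr4 with 8.05 TPM and Ccr3 with 7.66 TPM, whereas Cmklr1 had 2.43 TPM and Ccrl2 1.73 TPM. Libraries of Ccr2, Cxcr4 and Ccr3 overlapped in this order, and the other neighbors were separated. In KO M0 the order began with Ccr1 at 48.8 TPM and Cx3cr1 at 31.7 TPM, whose libraries did not overlap, and went on with Ccr2 at 15.2 TPM, while Cxcr4, Ccr3 and Cmklr1 overlapped from one to the next at 7.31, 5.72 and 4.33 TPM.

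After IL-4, Ccr1 headed the order in both genotypes (71.0 TPM in WT M2 and 70.7 TPM in KO M2). In WT M2, Ccr3 (16.2 TPM) and Ccr2 (12.6 TPM) came next with overlapping libraries, and so did Cmklr1 (2.68 TPM) and Cxcr4 (2.59 TPM). In KO M2, Ccr2 (14.97 TPM) stood above Ccr3 (8.00 TPM) without overlap, followed by Cmklr1 (2.72 TPM), and Cxcr4 (1.68 TPM) overlapped with Ccrl2 (1.56 TPM). Cx3cr1 was then at 0.33 TPM in WT and 0.39 TPM in KO, below every other receptor but Ccr7.

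**Figure D1:**
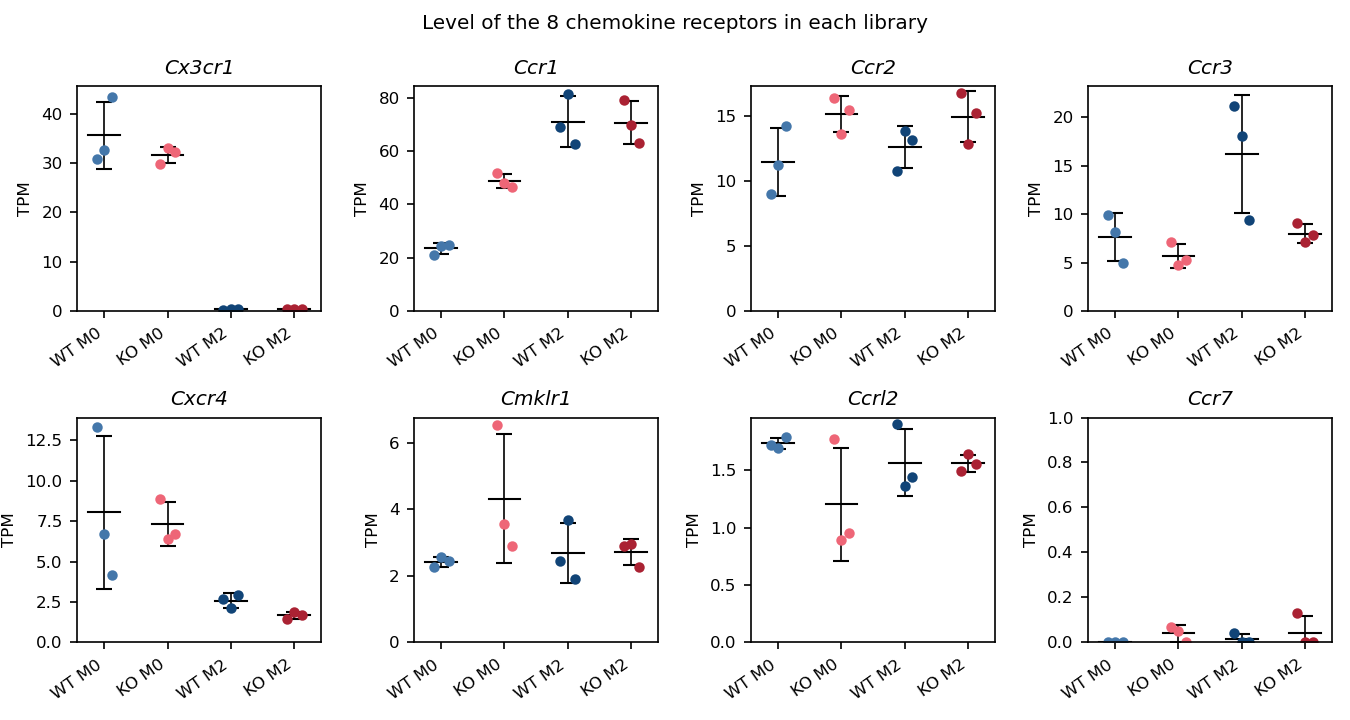
Each panel plots the TPM of 1 receptor gene on a linear axis from 0, with 1 point per library, a bar at the mean and whiskers of 1 SD (n = 3 libraries per group). Cx3cr1 drops from 29.8 TPM or more in M0 to at most 0.42 TPM in M2, and the Ccr1 libraries of KO M0 (46.6 to 51.9 TPM) lie between those of WT M0 (21.2 to 24.9 TPM) and the M2 groups.

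To describe how the genotypes differ in these receptors in untreated macrophages, KO M0 was compared with WT M0. All KO libraries also came from mice with Cre at Lyz2 and had little Lyz2 transcript. In every KO and WT comparison, loss of IGF2BP2, Cre and loss of Lyz2 therefore cannot be told apart. Ccr1, a receptor for the inflammatory chemokines Ccl3, Ccl5, Ccl6 and Ccl9, was measured in WT M0 at 31.3, 36.7 and 39.6 CPM, and in KO M0 at 78.6, 73.5 and 71.9 CPM. All KO libraries lay above all WT libraries, and behind these values were 968 to 1118 counts in WT and 2141 to 2772 in KO. Ccr1 was 2.08-fold higher in KO (log2 fold change 1.06, SE 0.12, 95% interval 0.80 to 1.32, edgeR adjusted p = 0.000402), and without WT mouse 3 the log2 fold change was 1.14 (edgeR adjusted p = 0.000248). In these bulk samples, more cells with the transcript and more transcript per cell cannot be told apart.

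Ccr1 was 1 of 7 receptors fitted that passed the test in M0, where 9.78% of all 12846 genes passed it (5.50% of all genes were called higher in KO). Ccr7 had too few counts to be fitted. The median log2 fold change of the 7 was -0.17, against -0.0007 over all genes. Groups did not overlap for 2 of the 7, Ccr1 and Cmklr1, both higher in KO, and for 31.1% of all genes, 16.2% higher in KO. Each non-overlapping pair of groups has an exact permutation p of 0.1 (two-sided), which is the smallest that 3 libraries against 3 can give.

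Cmklr1, the signaling receptor for the chemoattractant chemerin, had 2.17, 3.38 and 3.08 CPM in WT M0 and 6.21, 4.67 and 3.62 CPM in KO M0. The groups were separated by a narrow margin, between WT mouse 2 and KO mouse 3. The log2 fold change was 0.74 (SE 0.23, 95% interval 0.24 to 1.25), which missed the threshold with edgeR (adjusted p = 0.0641) and limma (adjusted p = 0.164) and passed it with DESeq2 (adjusted p = 0.0285). Of 11 other settings 2 called it, and of 12 runs that each left out 1 library 0 did (edgeR adjusted p = 0.052 to 0.211). Ccrl2, which binds chemerin without signaling, was found at 1.88, 1.87 and 2.10 CPM in WT, and at 1.98, 1.01 and 1.08 CPM in KO. Only KO mouse 1 was within the range of the WT libraries, and the log2 fold change was -0.54 (SE 0.24, edgeR adjusted p = 0.182). It ranged from -0.89 (edgeR adjusted p = 0.0257), without that library, to -0.37 when each of the 12 libraries was left out in turn. Of these 12 runs 1 called Ccrl2, and of 11 other settings 0 did.

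Ccr2, the receptor for Ccl2, Ccl7 and Ccl12, had 16.9, 21.8 and 28.2 CPM in WT M0 and 31.6, 27.2 and 30.6 CPM in KO M0. WT mouse 3 was above KO mouse 2, while the other WT libraries were below all KO libraries. Its log2 fold change was 0.42 (SE 0.16, edgeR adjusted p = 0.133) and became 0.62 (edgeR adjusted p = 0.0213) without WT mouse 3. Ccr3, the eotaxin receptor, reached 16.98, 14.2 and 9.15 CPM in WT compared with 12.5, 8.46 and 9.46 CPM in KO. Again the WT mice differed among themselves, and the log2 fold change was -0.42 (SE 0.28, edgeR adjusted p = 0.385) with all libraries and -0.63 (edgeR adjusted p = 0.0298) without WT mouse 3.

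Cx3cr1 had 60.4, 65.1 and 91.7 CPM in WT M0 and 59.8, 67.2 and 65.9 CPM in KO M0, with a log2 fold change of -0.17 (95% interval -0.44 to 0.10, edgeR adjusted p = 0.44). Cxcr4, the receptor for Cxcl12, had 11.03, 6.28 and 4.13 CPM (WT) and 7.02, 5.01 and 5.28 CPM (KO), with a log2 fold change of -0.32 (95% interval -0.91 to 0.27, edgeR adjusted p = 0.505). Both sets of libraries overlapped, and in both genes WT mouse 3 was at an end of the WT range. Ccr7 had 0 counts in the 3 WT M0 libraries and 2, 2 and 0 counts in KO M0, which is below the 3 counts (0.0776 to 0.155 CPM, depending on the library) up to which a count of 0 cannot be told from a low level. Such limits cover counting error only.

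Markers of other cell types were compared between the genotypes in M0. The 7 neutrophil markers summed to between 22.1 and 55.9 TPM in WT M0 and between 16.7 and 18.4 TPM in KO M0, with Ly6g at 0 in all libraries, and the granule gene Ngp (log2 fold change -1.82, edgeR adjusted p = 0.018) and S100a9 (-1.38, edgeR adjusted p = 0.0124) fell in KO. Stromal markers summed to between 10.7 and 21.1 TPM in WT M0 and between 3.27 and 12.7 TPM in KO M0, with overlapping libraries. Of the 4 fitted edgeR called 0 (0 with an unadjusted p under 0.05, and 0 by DESeq2 and by limma), where it called 9.78% of all genes. Of the 6 macrophage markers edgeR called 1 in M0, Itgam, which was higher in KO (log2 fold change 0.45, edgeR adjusted p = 0.00396). Mertk (0.34) and Csf1r (0.06) were also above 0, while Adgre1 (-0.18), Cd68 (-0.06) and Fcgr1 (-0.02) were below. The median was 0.0186. Without WT mouse 3, Adgre1 passed as lower in KO (-0.27, edgeR adjusted p = 0.0205). The part of these markers' cells in the receptor differences was not tested.

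IL-4 was then compared with no treatment within each genotype. In WT macrophages 4 of 7 receptors passed the test, 2 higher (Ccr1 and Ccr3) and 2 lower (Cx3cr1 and Cxcr4), against 50.0% of all genes, 24.9% higher and 25.1% lower. In KO macrophages 3 of 7 passed, 1 higher (Ccr1) and 2 lower (Cx3cr1 and Cxcr4), against 52.8% of all genes, 26.8% higher and 26.0% lower. These shares are near those of all genes. The median log2 fold change was 0.27 in WT and 0.12 in KO, against -0.0076 and 0.014 over all genes. With the mouse as a block in the model, 5 receptors passed in each genotype, as Ccr2 was added in WT and Ccr3 and Cmklr1 in KO, and over all genes 7016 passed in WT and 7472 in KO, compared with 6428 and 6784 without the block.

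Among the 7 receptors the largest change was that of Cx3cr1, the receptor for the membrane-bound chemokine fractalkine. In M2 it was left with 0.454, 0.773 and 0.869 CPM (WT) and 0.942, 0.75 and 0.808 CPM (KO), from 10 to 17 counts and from 25 to 30 counts. No M2 library came near the 59.8 CPM that was the lowest value in M0. Cx3cr1 fell 104-fold in WT (log2 fold change -6.70, SE 0.22, edgeR adjusted p = 1.3e-10) and 77.9-fold in KO (-6.28, SE 0.20, edgeR adjusted p = 7.99e-11). Mouse by mouse, the fall was 133-, 84.2- and 106-fold in WT and 63.6-, 89.5- and 81.7-fold in KO. The difference between both responses was 0.42 (95% interval -0.51 to 1.35, edgeR adjusted p = 0.658), and leaving out WT mouse 3 changed the log2 fold change in WT only to -6.69.

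Cxcr4 reached 2.36, 1.80 and 2.66 CPM in WT M2 and 1.51, 1.47 and 1.56 CPM in KO M2. All M2 libraries were lower than all M0 libraries. It fell 3.15-fold in WT (log2 fold change -1.65, SE 0.31, edgeR adjusted p = 0.000631) and 3.79-fold in KO (-1.92, SE 0.31, edgeR adjusted p = 0.000168). WT mouse 3 changed least, by 1.55-fold against 4.67- and 3.48-fold in WT mice 1 and 2, and without this mouse the log2 fold change in WT was -2.05 (edgeR adjusted p = 0.000105).

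Ccr1 rose with IL-4 to 109.9, 130.1 and 99.3 CPM in WT M2 and to 134, 110.1 and 101 CPM in KO M2. The M2 groups overlapped, although the M0 groups from which they started did not. In WT the increase was 3.16-fold (log2 fold change 1.66, SE 0.12, edgeR adjusted p = 1.85e-07) and in KO it was 1.54-fold (0.62, SE 0.12, edgeR adjusted p = 0.000589). Single mice gave 3.51-, 3.54- and 2.51-fold in WT and 1.70-, 1.498- and 1.404-fold in KO, so that every WT mouse exceeded every KO mouse. Tested directly, the response was smaller in KO by 1.04 on the log2 scale (-1.04, SE 0.17, 95% interval -1.399 to -0.68, edgeR adjusted p = 0.00755). Without WT mouse 3 this difference was -1.20 (edgeR adjusted p = 0.00501).

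Ccr3 reached 39.1, 33.6 and 17.4 CPM in WT M2 and 17.7, 13.0 and 14.5 CPM in KO M2. WT mouse 3 was the lowest WT library in M0 and in M2, and its M2 value fell within the KO range. Ccr3 rose 2.22-fold in WT (log2 fold change 1.15, SE 0.27, edgeR adjusted p = 0.00364). In KO the log2 fold change was 0.58 (SE 0.28, 95% interval -0.03 to 1.19, edgeR adjusted p = 0.103) without a block, 0.58 with the mouse as a block (edgeR adjusted p = 8.61e-05) and 0.57 when WT mouse 3 was left out of the shared fit (edgeR adjusted p = 0.00685). Mice gave 2.30-, 2.36- and 1.90-fold in WT against 1.42-, 1.54- and 1.54-fold in KO. The difference of the responses was -0.58 (edgeR adjusted p = 0.481) without and -0.56 (edgeR adjusted p = 0.0127) with the block. Eosinophils are the classical carriers of Ccr3, and of their genes Epx, Prg3 and Il5ra had 0 counts in all libraries, Prg2 had 1 count in 1 library, and the 5 markers summed to at most 0.62 TPM.

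**Figure D2:**
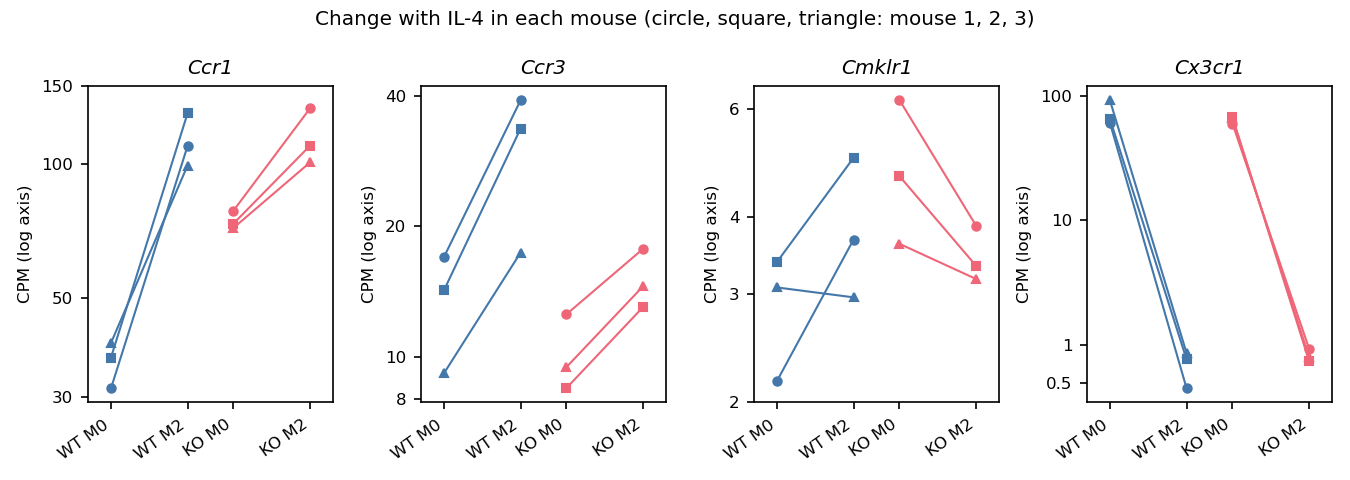
Lines join the M0 and M2 libraries of each mouse for 4 receptor genes, in CPM on log axes that differ between panels (blue, WT; red, KO). The Ccr1 lines are steeper in all 3 WT mice (2.51- to 3.54-fold) than in the KO mice (1.404- to 1.70-fold), and all 6 Cx3cr1 lines end below 1 CPM.

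Ccr2 had 22.9, 29.6 and 28.0 CPM in WT M2 and 37.8, 27.5 and 32.2 CPM in KO M2. Its log2 fold change with IL-4 was 0.27 in WT (edgeR adjusted p = 0.211, or 0.0259 with the mouse as a block) and 0.12 in KO (95% interval -0.22 to 0.47, edgeR adjusted p = 0.546). The M0 and M2 groups overlapped in both genotypes. WT mouse 3 had a ratio of 0.99, against 1.35 and 1.36 in the other WT mice. Without its M0 library the value in WT was 0.46 (edgeR adjusted p = 0.0238), and without both of its libraries it was 0.43 (edgeR adjusted p = 0.0576).

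Cmklr1 had 3.68, 5.00 and 2.96 CPM in WT M2 and 3.88, 3.34 and 3.18 CPM in KO M2. In WT it was 1.70-, 1.48- and 0.964-fold of its M0 level, while in KO it was 0.625-, 0.715- and 0.877-fold. The log2 fold change was 0.43 in WT (edgeR adjusted p = 0.162) and -0.48 in KO (edgeR adjusted p = 0.0971, or 0.029 with the mouse as a block). A test of the difference gave -0.91 (SE 0.33, 95% interval -1.63 to -0.19, edgeR adjusted p = 0.173), which passed with the mouse as a block (-0.89, edgeR adjusted p = 0.0481). Each library held only 58 to 176 Cmklr1 counts.

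Ccrl2 had 2.23, 1.598 and 1.69 CPM in WT M2 and 1.85, 1.91 and 1.83 CPM in KO M2. Its log2 fold change was -0.08 in WT (95% interval -0.61 to 0.45, edgeR adjusted p = 0.815) and 0.48 in KO (-0.04 to 1.00, edgeR adjusted p = 0.112). The value in KO was 0.83 (edgeR adjusted p = 0.0046) without the KO M0 library of mouse 1. That was 1 call in 12 runs that each left out 1 library, and 0 of 11 other settings called it. Ccr7 had 1 count in 1 of the WT M2 libraries and 4 counts in 1 of the KO M2 libraries, and 0 in the others. The 6 dendritic cell markers summed to between 2.34 and 4.49 TPM in M0 and to between 29.8 and 36.1 TPM in M2, as the transcription factor genes Batf3 and Zbtb46 rose in both genotypes (log2 fold change of Batf3 3.65 in WT and 3.72 in KO, edgeR adjusted p = 1.19e-08 and 6.5e-09), while Fscn1 had -0.62 in WT and -0.82 in KO (edgeR adjusted p = 0.253 and 0.161, or 0.0598 and 0.0412 with the mouse as a block) and Flt3 had at most 4 counts. Monocyte markers summed to between 4.17 and 6.42 TPM in M0 and 19.6 and 38.5 TPM in M2, led by Chil3, a gene that IL-4 is known to induce. Neutrophil marker sums went from 50.5, 55.9 and 22.1 TPM in WT M0 to 32.9, 25.3 and 13.1 TPM in WT M2, and from between 16.7 and 18.4 TPM to between 12.8 and 17.8 TPM in KO. Libraries overlapped in both genotypes. With IL-4 in WT, edgeR called 2 of 3 fitted markers lower (Ngp and S100a9) and limma called 1, where 50.0% of all genes passed with edgeR, 25.1% lower. In KO edgeR called 0 of the 3, where 52.8% of all genes passed. The part of other cells in the IL-4 responses was not tested.

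In the difference of the IL-4 responses, Ccr1 was 1 of 7 receptors that passed, against 3.24% of all genes (2.13% of all genes were called lower in KO), and with the mouse as a block 3 passed (Ccr1, Ccr3 and Cmklr1), among 1003 of all 12846 genes. The median over the 7 was -0.27, against 0.0065 over all genes. This contrast is built from the same 4 groups as the comparisons above and is no separate evidence. All KO mice had smaller M2 to M0 ratios than all WT mice for Ccr1, Ccr3 and Cmklr1, that is for 3 of the 7, and such ratios did not overlap for 30.9% of all genes.

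KO and WT were lastly compared after IL-4. With edgeR 0 of 7 receptors passed, against 2.68% of all genes, 1 had an unadjusted p under 0.05 (Ccr3), and DESeq2 and limma called 0 as well. Ccr3 averaged 15.1 ± 2.41 CPM in KO M2 and 30.02 ± 11.3 CPM in WT M2 (mean ± SD, n = 3). The fit gave it -1.002 on the log2 scale (SE 0.27, 95% interval -1.59 to -0.41, edgeR adjusted p = 0.0704). Leaving out both libraries of WT mouse 3 gave -1.28 (edgeR adjusted p = 0.00168), and leaving out its M0 or its M2 library alone gave -1.005 and -1.28 (edgeR adjusted p = 0.0345 and 0.0197). Neutrophil markers summed to 32.9, 25.3 and 13.1 TPM in WT M2 and to 12.8, 17.8 and 13.7 TPM in KO M2. Stromal marker sums were 12.2 to 22.3 TPM in WT M2 and 3.03 to 10.8 TPM in KO M2, without overlap, with a median log2 fold change of -1.20 over the 4 fitted markers, of which edgeR called 0 (3 with an unadjusted p under 0.05, and 0 by DESeq2 and by limma). The part of these cells was not tested.

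Ccr1 in KO M2 differed from WT M2 by 0.02 on the log2 scale, with a 95% interval of -0.23 to 0.27 (edgeR adjusted p = 0.939), so that a difference as large as that in M0 lay outside the interval. Cxcr4 was lower in all KO M2 libraries than in any WT M2 library, with a log2 fold change of -0.59 (95% interval -1.33 to 0.15, edgeR adjusted p = 0.357) on 35 to 58 counts per library, and groups did not overlap for 24.8% of all genes. Intervals were -0.08 to 0.63 for Ccr2, -0.64 to 1.14 for Cx3cr1, -0.51 to 0.55 for Ccrl2 and -0.68 to 0.35 for Cmklr1.

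**Figure D3:**
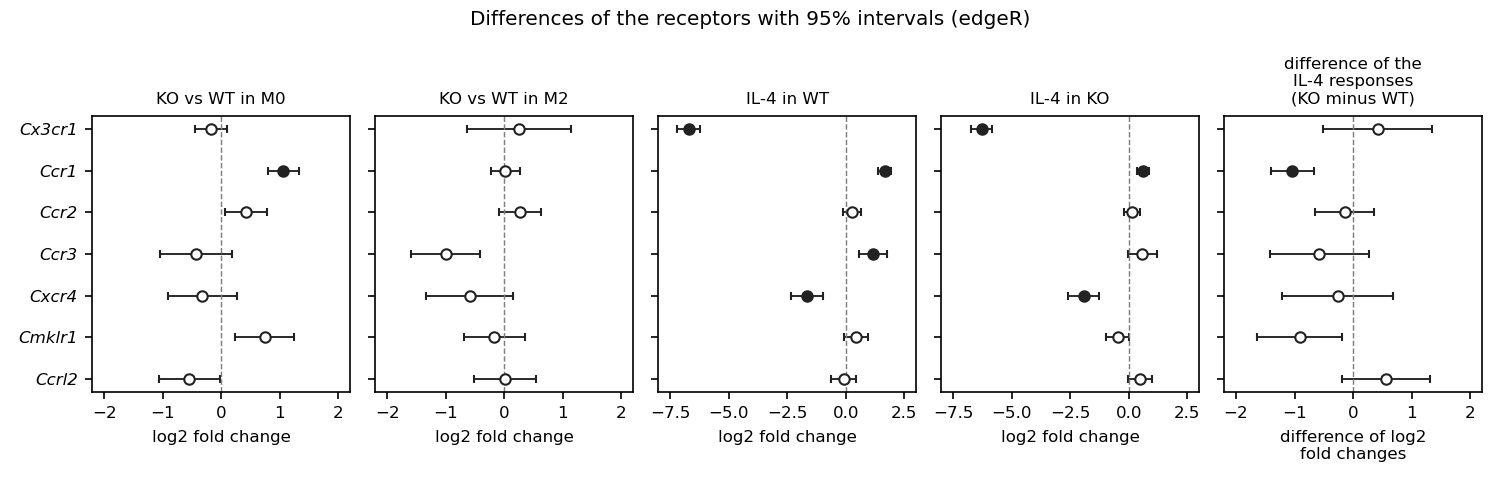
Points give the edgeR log2 fold change of 7 receptor genes in each of 5 comparisons, with 95% intervals and filled where the adjusted p was under 0.05 (the horizontal axes differ between IL-4 and the other panels). Ccr1 is filled in 4 panels and lies at 0.02 in the comparison of KO and WT in M2, while Cx3cr1 is filled in the IL-4 panels alone.

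Other genes of the chemokine system were taken from lists. Among 13 further chemokine receptors 3 were fitted, and 4 atypical receptors (Ackr1 to Ackr4) had too few counts. Cxcr3, a receptor for interferon-induced chemokines, fell with IL-4 in WT and KO (log2 fold change -0.90 and -0.84, edgeR adjusted p = 0.00223 and 0.00185).

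Of 16 ligands of the 8 receptors 12 were fitted. With IL-4, 50.0% of all genes passed in WT (24.9% higher and 25.1% lower) and 52.8% in KO (26.8% higher and 26.0% lower). Of the 12 ligands, 5 rose and 1 fell in WT, and 6 rose and 0 fell in KO. The Ccr2 ligands Ccl2 and Ccl7 were among the most abundant of these genes, as Ccl2 went from 1644 TPM in WT M0 to 4842 TPM in WT M2 (log2 fold change 1.62, edgeR adjusted p = 2.1e-07) and Ccl7 from 593 to 4259 TPM (2.898, edgeR adjusted p = 1.75e-08), while Ccl12 rose by 3.37 in WT and 3.80 in KO (edgeR adjusted p = 1.84e-08 and 5.65e-09). Ccl24, an eotaxin that binds Ccr3, had 0 to 7 counts in the M0 libraries and 194 to 787 counts in the M2 libraries, and Ccl8 had 1 to 3 counts against 45 to 107 counts. Both passed in both genotypes, with M0 counts too few for a fold change. The other eotaxin in the list, Ccl11, had 0 counts in M0 and 1 to 7 in M2. The ligands Ccl3, Ccl5, Ccl6 and Ccl9, which bind Ccr1 as Ccl7 also can, did not pass the test in either genotype. With the mouse as a block, Ccl6 passed in both (log2 fold change -0.32 in WT and -0.23 in KO, edgeR adjusted p = 0.00404 and 0.0195) and Ccl9 in KO (-0.25, edgeR adjusted p = 0.00699). Without WT mouse 3, Ccl5 passed in WT (0.76, edgeR adjusted p = 0.0418) and in KO (-0.75, edgeR adjusted p = 0.0103), compared with 0.29 and -0.75 with it.

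Cx3cl1, which encodes fractalkine, had 7.60, 9.07 and 8.88 CPM in WT M0, 3.97, 4.59 and 4.31 CPM in KO M0, 1.68, 2.37 and 2.96 CPM in WT M2 and 3.31, 3.80 and 3.04 CPM in KO M2. The order of the genotypes was opposite in M0 and M2, without overlap in both. Cx3cl1 was lower in KO M0 than in WT M0 (log2 fold change -0.98, SE 0.16, edgeR adjusted p = 0.00276) and fell with IL-4 in WT (-1.87, SE 0.17, edgeR adjusted p = 1.72e-06). In KO the IL-4 response was -0.34 (edgeR adjusted p = 0.095, or 0.0356 with the mouse as a block), and the difference of the responses was 1.53 (SE 0.24, edgeR adjusted p = 0.00646). The Ccr2 ligand Ccl7 was higher in KO M0 (0.59, edgeR adjusted p = 0.0326), and without WT mouse 3 Ccl2 (0.52, edgeR adjusted p = 0.000831) and Ccl6 (0.51, edgeR adjusted p = 0.0131) passed in M0 too. In M2, where 2.68% of all genes passed, the genotypes differed by edgeR for 0 of 12 ligands (3 with an unadjusted p under 0.05, and 0 by DESeq2 and by limma), and for 4 without WT mouse 3, when 1098 of all 13012 genes then fitted passed. Of these 4, Cx3cl1 had 0.75 (edgeR adjusted p = 0.0354). Cxcl12 had 5 to 52 counts per library, and the chemerin gene Rarres2 had at most 3. Mif, an alternative ligand of Cxcr4, averaged 590.4 TPM in WT M0.

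**Figure D4:**
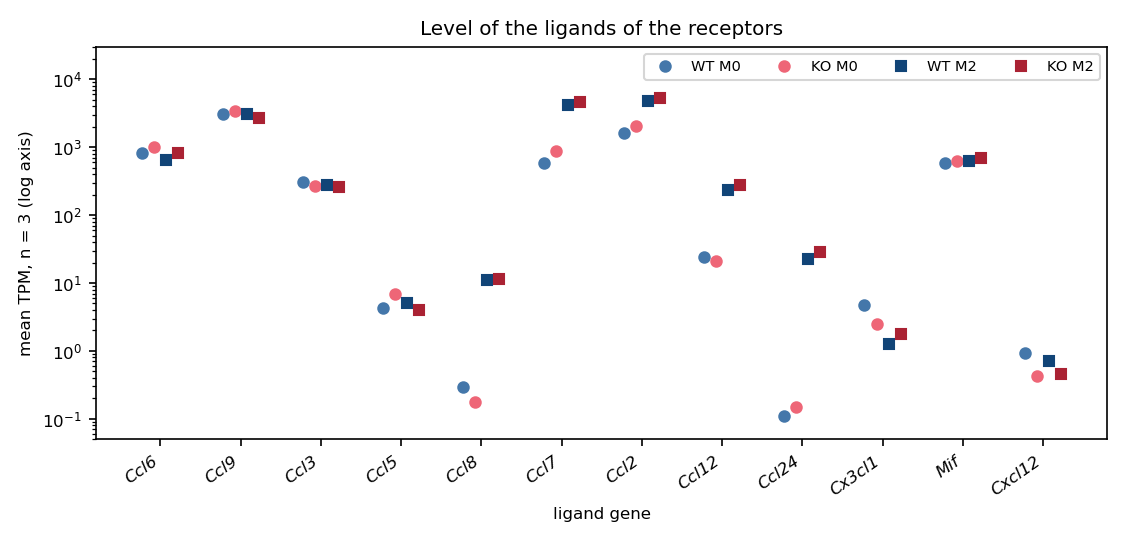
Points give the mean TPM of 12 ligand genes in each group on a log axis (n = 3 libraries; circles, M0; squares, M2). Ccl2, Ccl7, Ccl8, Ccl12 and Ccl24 are higher in M2 in both genotypes, whereas Cx3cl1 is highest in WT M0 at 4.75 TPM.

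Receptors of other attractants formed a list of 8 genes, of which 7 were fitted, and 6 passed with IL-4 in WT and in KO, 2 higher and 4 lower. Of all genes 50.0% passed in WT (24.9% higher and 25.1% lower) and 52.8% in KO (26.8% higher and 26.0% lower). The leukotriene B4 receptor gene Ltb4r1 went from 0 to 7 counts in M0 to 126 to 228 counts in M2, and the formyl peptide receptor gene Fpr1 from 96 to 289 counts to 1 to 7 counts. Fpr2 fell by 3.04 on the log2 scale in WT and by 3.66 in KO (edgeR adjusted p = 3.32e-06 and 1.7e-07), Ptafr, the receptor for platelet-activating factor, by 1.16 and 1.27 (edgeR adjusted p = 9.93e-08 and 3.2e-08), and the complement receptor gene C3ar1 rose by 0.30 and 0.22 (edgeR adjusted p = 0.00372 and 0.0202). Between genotypes in M0, where 9.78% of all genes passed, edgeR called 0 of the 7 (3 with an unadjusted p under 0.05), DESeq2 1 and limma 0. Without WT mouse 3, edgeR called 3 of the 7, and 1733 of all 13012 genes.

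Of the 14 signal transduction genes, all fitted, 2 rose and 5 fell with IL-4 in WT and 3 rose and 5 fell in KO. The totals were near the 50.0% and 52.8% of all genes that passed. By direction, 24.9% of all genes rose and 25.1% fell in WT, and 26.8% rose and 26.0% fell in KO. The list was led by Pik3r5, a regulatory subunit of PI3-kinase gamma (log2 fold change -0.96 in WT and -0.77 in KO, edgeR adjusted p = 1.86e-07 and 1.21e-06), and by the G protein subunit gene Gng2 (-0.72 and -0.67, edgeR adjusted p = 3.48e-07 and 4.73e-07). Gnb1 and Gnai3 rose by less than 0.5 in both genotypes. Of 12 desensitization genes, 3 rose and 6 fell in WT and 3 rose and 7 fell in KO, against the same 50.0% and 52.8% of all genes. The RGS protein gene Rgs16 rose by 2.70 and 3.28 (edgeR adjusted p = 1.66e-06 and 5.98e-07), while the receptor kinase genes Grk5 (-1.39 and -1.89, edgeR adjusted p = 8.6e-08 and 3.34e-09) and Grk3 (-1.03 and -0.70, edgeR adjusted p = 6.93e-06 and 0.000115) fell. In M0, Rgs16 was lower in KO (-1.32, edgeR adjusted p = 0.0192), and it was the only gene of both lists that edgeR called between the genotypes in M0. Without WT mouse 3, edgeR called 3 of the signal transduction genes and 2 of the desensitization genes there, among 1733 of all 13012 genes.

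Of 9 genes beside the receptors on chromosome 9, 4 were fitted. Sacm1l, which lies close to the Ccr1 cluster, rose with IL-4 by 0.90 in WT and 0.88 in KO (edgeR adjusted p = 1.7e-06 and 1.65e-06), and Lztfl1 fell by 0.46 and 0.25 (edgeR adjusted p = 2.72e-06 and 0.000316). In M0, Lztfl1 was lower in KO by a small amount (log2 fold change -0.19, edgeR adjusted p = 0.0192), and so was Ltf (-2.09, edgeR adjusted p = 0.00759), the neighbor of Ccrl2 and itself a gene of neutrophil granules.

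Over all 12 libraries the receptors differed in which genes they resembled, as measured by Pearson correlation of log2 CPM with each of 12845 other genes. For Ccr1 the closest genes were Stx7 (r = 0.984), Tifab and Rhob, for Ccr2 Ciao2a (0.958), Arl6ip5 and Selenof, and for Ccr3 C3ar1 (0.978), Nacc2 and Pitpnc1. Cx3cr1 was closest to Basp1 (0.998), Map4k2 and Cd14, and 1478 genes exceeded 0.9 with it, compared with 690 for Cxcr4, 242 for Ccr1, 21 for Ccr3 and 8 for Ccr2. Cxcr4 was closest to Strbp (0.98), Mbnl2 and Mcm6, whereas Ccrl2 (Gm15834, 0.917, then Adsl and Sema7a) and Cmklr1 (Slc4a2, 0.858, then Tssk6 and Anxa7) had 1 and 0 genes above 0.9. The 12 points come from 4 groups and share libraries, so these values describe a pattern across the groups.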

How the data were processed

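RNA of 12 BMM cultures was read as 1 × 75 nt from a directional poly(A) library kit. Per the paper's methods and the labels, the authors aligned and quantified the reads with their Grape-nf pipeline on GRCm38 with GENCODE gene models. The deposited expected counts are estimated reads per gene, which the authors' quantification divided among genes where a read fits several, and the deposited TPM values were scaled by the authors for transcript length and library. Whether counting used the strand is not given in the sources used here. Further deposited tables hold the authors' DESeq2 fold changes and p-values, of which only gene symbols were used (21000 genes). Reference tables gave symbols for 16570 more, and 1317 had none.

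Expected counts were rounded and tested with edgeR's quasi-likelihood test (edgeR 4.0.16, R 4.3.3; TMM scaling, filterByExpr, 12846 genes, all 12 libraries in one fit, Benjamini-Hochberg adjustment over all fitted genes, threshold 0.05). An SE is the log2 fold change divided by the square root of F. DESeq2 1.42.0 and limma 3.58.1 were alternatives. CPM were computed with TMM-scaled library sizes. The common biological coefficient of variation was 8.08%, and low counts limit Ccr7, Cx3cr1 in M2, Ccrl2, Cxcr4 in M2 and Cmklr1. On simulated data the test recovered between 77% and 84.5% of 200 genes changed by 1 on the log2 scale, per comparison. Between 2.98% and 6.67% of the calls were false, the latter for the difference of the IL-4 responses. The simulation held no differences between mice and drew genes of all levels, so it gives no rate for low counts or for a deviating mouse.

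Deviations from group means correlated between same-numbered M0 and M2 libraries with 0.331, 0.103 and 0.364 in WT and with 0.166, 0.16 and 0.209 in KO, so the number was taken to pair them. Between WT and KO the values were between -0.0684 and 0.0403, so numbers were not taken as pairs there. The 8 receptors, the gene lists and the tests were chosen with earlier results of these data known. The text names all 8 and, from each other list, up to 3 genes per direction, comparison and list that passed the test and averaged 1 CPM or more. Further genes were chosen after their values were seen. One gene of the lists is not reported here.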

Additional observations from a re-analysis of the deposited data

Results flagged for a closer look

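The IL-4 response of Ccr1 differed between the genotypes by the test of the difference itself. The log2 fold change with IL-4 was 1.66 in WT and 0.62 in KO, a difference of -1.0372 (SE 0.17, edgeR adjusted p = 0.00755), with single-mouse ratios of 3.51, 3.54 and 2.51 in WT and 1.70, 1.498 and 1.404 in KO. The KO M0 libraries began higher (71.9 to 78.6 CPM, against 31.3 to 39.6 CPM in WT M0), and the M2 libraries overlapped (101 to 134 CPM in KO and 99.3 to 130.1 CPM in WT). Neutrophil marker sums were lower in KO M0 than in WT M0, and their part was not tested.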

How the results depend on the processing

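Of 798 single-gene values recomputed for the receptors under other settings, 753 kept their direction and their side of the threshold, 0 lost a call, 22 gained one and 23 changed direction. The calls of Ccr1, Cx3cr1 and Cxcr4, and of Ccr3 with IL-4 in WT, held in every setting run. Where counts moved, the cause was not tested. In M0 the number of receptors called was 2 with DESeq2 and 2 without a filter, and 3 without WT mouse 3, a setting chosen after seeing the data. Calls over all genes, 1256 in M0, 344 in M2 and 416 for the difference of responses, became 752, 700 and 755 in M0 with limma on log2(TPM + 1), log2(TPM + 0.1) and log2(posterior mean TPM + 1). They were 70, 57 and 200 in M2 and 113, 113 and 163 for the difference with the same settings, and 713 in M2 and 816 for the difference with DESeq2. In M2 the 6 libraries alone gave 165 and the data without WT mouse 3 gave 1098, and 1 receptor was called without a filter, with the replicate block and without WT mouse 3. With the replicate block, 5 receptors were called with IL-4 in KO and 3 for the difference, where all genes came to 1003. The block changed no other call of the receptors with IL-4 than those given with the results. In M2, where the number pairs nothing, the block gave Ccr3 -0.95 (edgeR adjusted p = 0.0266). Leaving out 1 library at a time gave 461 to 1461 calls in M0 (1 to 2 receptors), 25 to 761 in M2 (0 to 1), 5606 to 6678 with IL-4 in WT (4 to 5), 6034 to 7038 in KO (3 to 4) and 183 to 643 for the difference (1 to 1). The lowest counts came without WT M0 library 2 (461 and 183) and without KO M2 library 3 (25), and the highest without WT M0 library 3 (1461 and 761) and without WT M0 library 1 (643).

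Small log2 differences changed sign. In M0, Cxcr4 was 0.0096 with limma on log2(TPM + 0.1) and -0.5876 to 0.1383 over left-out libraries, and Cx3cr1 was 0.0389 without WT mouse 3 and -0.2815 to 0.04 over left-out libraries. In M2, Ccr1 was -0.0041 with limma at both pseudocounts, -0.0643 without WT mouse 3 and -0.0988 to 0.1355 over left-out libraries, Cmklr1 was 0.0366 and 0.058 with limma and -0.3252 to 0.0534 over left-out libraries, and Ccrl2 was -0.0445 without WT mouse 3 and -0.0722 to 0.1835 over left-out libraries. Without WT mouse 3, Ccrl2 with IL-4 in WT was 0.035 and the difference for Cxcr4 was 0.1225. Over left-out libraries, Ccrl2 with IL-4 in WT was -0.2444 to 0.0117 and the difference for Ccr2 -0.3458 to 0.0229. Ccr2 with IL-4 in KO was -0.0231, -0.0247 and -0.017 under the limma settings.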
